A study of Mus musculus with 10 samples.

Results

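The genes described here encode 5 acute-phase proteins, 4 inflammatory cytokines and 1 cytokine antagonist: Saa1, Saa3, Lcn2, Orm1, Hp, Il1b, Il6, Csf3, Tnf and Il1rn. They were taken by name, every probe counting whose file name or current symbol was one of the 10. All 10 were on the array, with 12 probes, among 27670 gene names; Saa1 and Il1rn had more than 1 probe.

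Whole lungs came from 10 female BALB/c mice, bought at 6 to 8 weeks of age and exposed for 8 weeks in a whole-body system. Of these, 5 breathed mainstream smoke from cigarettes with the filters removed, 12 per exposure, in 2 exposures of 50 minutes a day on 5 days a week, and 5 breathed room air alone. Each mouse had 1 Agilent array. The arrays named room air 1 and smoke 1 lay on 1 slide, as did the other 4 pairs of equal number. Both arrays of a slide were scanned on the same day. The barcodes in the file headers end in 1 for every smoke array and in 2 for every room air array, read here as the place on the slide. Place and exposure therefore cannot be told apart in any difference below.

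The submitters' labels name a single dye, Cy3, which is usually read in the green channel, but the scanner files hold 2 channels. Probes of the Y-linked genes Ddx3y, Eif2s3y and Kdm5d were well above background in green on 10 arrays each and in red on 2, 0 and 1, with median green signals of 1030, 874 and 285. The probe of a further Y-linked gene, Uty, was well above background in neither channel on any array. Sftpc, the gene of surfactant protein C, had a median signal of 3890000 in red and 44400 in green, Scgb1a1 1280000 and 12100, and Ager 89700 and 3230. Since the mice were female, red was read as lung and green as a reference RNA, against the dye that the labels name. A level below is the log2 ratio of lung over reference, so that 1 unit is a doubling. The deposited table of processed values holds, in each column, values closest to the mean of both channels of the array with the same number in the other group (correlation across spots 0.992 to 0.995, against 0.983 to 0.989 for the array under the same label). Its column medians were 8.03, 7.86, 7.34, 8.03 and 7.84 for room air 1 to 5 and 7.96, 8.06, 7.81, 7.66 and 7.88 for smoke 1 to 5, which fits a log2 scale without centring, but what the values combine stays unknown. The groups are therefore exchanged between the scanner files and that table, and these values alone do not settle which labels are right. The paper gives Lcn2 as higher in the lungs of smoke-exposed mice. Under the labels of the scanner files Lcn2 was higher in smoke, and under those of the table it was lower. All directions below, and the name of room air 1, follow the labels of the scanner files; under the labels of the table the groups would change places.

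Acute-phase proteins are secreted in large amounts during inflammation, classically by the liver, and several are also made by airway epithelium, macrophages and neutrophils. Their genes respond to interleukin-1 and tumour necrosis factor through NF-kB and to interleukin-6 through STAT3 and C/EBP factors. Interleukin-1 beta is balanced by the receptor antagonist that Il1rn encodes, which occupies the same receptor without signalling. In bulk tissue a change in the number of cells of a type and a change in RNA per cell cannot be told apart.

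Serum amyloid A3 is the form of this lipoprotein family made mainly outside the liver. Its log2 ratios were 3.50 on room air 1 and -2.71, -3.12, -2.56 and -2.94 on room air 2 to 5, against 2.41, 2.82, 2.61, 2.48 and 2.98 on smoke 1 to 5. The groups overlapped, because room air 1 lay above all 5 smoke arrays, while the other 4 room air arrays lay far below them. The group means were -1.57 ± 2.84 (SD, n = 5) and 2.66 ± 0.24, a difference of 4.23 (SE 1.08), or 18.7-fold higher with smoke (limma adjusted p = 0.037). Without room air 1 the difference was 5.50 (SE 0.14), or 45.1-fold (adjusted p = 3.16e-09). Room air 1 itself exceeded the mean of the other room air arrays 80.6-fold. Leaving out any 1 of the 9 other arrays moved Saa3 above the threshold of 0.05, to adjusted p between 0.0711 and 0.0938.

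Saa1 encodes a form of serum amyloid A that the liver releases into blood. The brighter of its probes read 3.51 on room air 1, -1.35, -1.58, -0.41 and -1.55 on room air 2 to 5, and 2.46, 2.71, 2.58, 2.02 and 2.92 on smoke 1 to 5. Again room air 1 was the highest of the 10 arrays and the other room air arrays were the 4 lowest. The difference of 2.82 (SE 0.83), or 7.04-fold, missed the threshold with all arrays (adjusted p = 0.0703, 95% interval 0.99 to 4.64) and passed it with the slide as a block (adjusted p = 0.0431) and without room air 1 (3.76, 13.6-fold, adjusted p = 3.5e-06). The dimmer probe had the same arrangement, with a difference of 1.55 (adjusted p = 0.166), and 2.23 without room air 1 (adjusted p = 8.53e-07). It was well above background in red on 9 of 10 arrays and in green on 6, and its red signals of 17.1 to 40.7 on room air 2 to 5 lay below the offset of 50, so its sizes are not compared with those of the brighter probe. Both probes are shown with that of Saa3, the other serum amyloid A gene of the 10.
Saa1, brighter probe: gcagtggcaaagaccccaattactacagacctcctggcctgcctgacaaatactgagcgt
Saa1, dimmer probe: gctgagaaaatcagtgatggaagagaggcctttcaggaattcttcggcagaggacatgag
Saa3: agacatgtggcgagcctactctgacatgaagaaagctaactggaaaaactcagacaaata

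Lcn2 encodes lipocalin 2, which binds bacterial iron carriers and is made by neutrophils, macrophages and airway epithelium. Its ratios were 4.03 on room air 1, 0.92, 0.85, 0.51 and 0.79 on room air 2 to 5, and 4.04, 4.35, 4.13, 3.60 and 4.14 on smoke 1 to 5. Room air 1 fell within the smoke arrays, above smoke 4 alone. The difference was 2.63 (SE 0.56), or 6.2-fold (adjusted p = 0.0158), and 3.28 (SE 0.14), or 9.74-fold, without room air 1 (adjusted p = 1.58e-07). Lcn2 kept its call without each of the 10 arrays in turn, with adjusted p of at most 0.0441. The green signal of this probe was not constant: it was 1330 on room air 1, 349 to 458 on room air 2 to 5 and 902 to 1140 on the smoke arrays, so the ratio gave a smaller difference than red alone, which was 3.81 after scaling to the 75th percentile (adjusted p = 0.038). The part of the green channel in the ratios was not tested further.

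Orm1 encodes orosomucoid 1, a plasma carrier protein. It read 1.66 on room air 1, -0.04, 0.34, 0.11 and 0.18 on room air 2 to 5, and 1.49, 1.53, 1.66, 1.24 and 1.42 on smoke 1 to 5. Room air 1 lay level with the highest smoke array. The difference was 1.02 (SE 0.27), or 2.03-fold (adjusted p = 0.0443), and 1.32, or 2.5-fold, without room air 1 (adjusted p = 7.04e-06), while without any 1 of the other 9 arrays the adjusted p was 0.0656 to 0.104. The probe was well above background in red on 4 of 5 room air and all 5 smoke arrays and in green on 2 of 10, and its size depended on the processing. The difference was 2.69 with the scanner's processed signals (adjusted p = 0.125), 2.64 with red alone scaled to the 75th percentile (adjusted p = 0.0512) and 1.51 with an offset of 16 (adjusted p = 0.0272).

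Hp encodes haptoglobin, which captures free haemoglobin. Its ratios were 5.87, 4.96, 5.51, 4.84 and 5.26 on room air 1 to 5 and 5.55, 5.19, 5.30, 4.89 and 5.30 on smoke 1 to 5. The groups overlapped throughout, with room air 1 the highest array. The difference was -0.04 (95% interval -0.45 to 0.37, adjusted p = 0.957), and 0.10 without room air 1 (-0.23 to 0.44, adjusted p = 0.834). Its sign changed with some processing alternatives, and no direction is drawn.

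**Figure D1:**
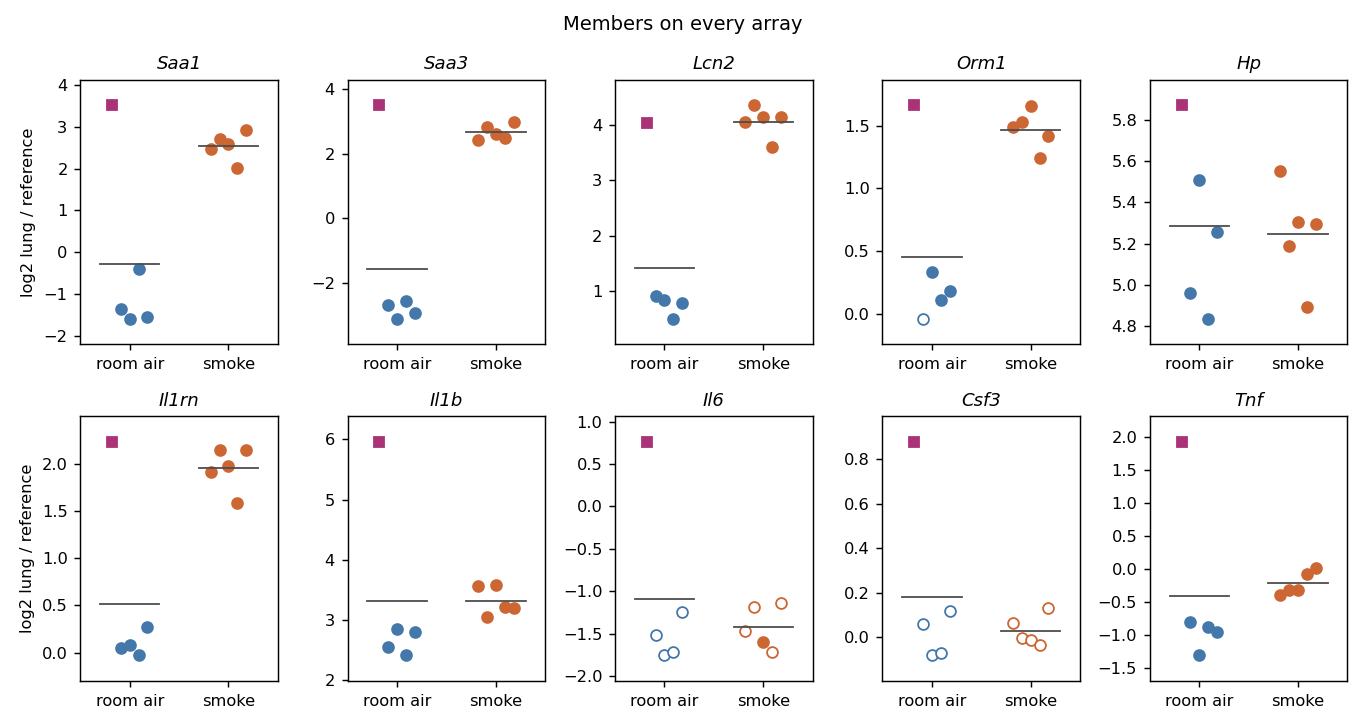
Log2 ratio of lung over reference for the representative probe of each of the 10 genes on every array, with room air arrays at the left and smoke arrays at the right of each panel. Squares mark room air 1, open symbols probes not well above background in red, and bars the group means; room air 1 is the highest array in 9 of the 10 panels, and each panel has its own axis.

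Il1rn encodes the interleukin-1 receptor antagonist. The brighter probe read 2.23 on room air 1, 0.05, 0.08, -0.03 and 0.27 on room air 2 to 5, and 1.91, 2.15, 1.98, 1.58 and 2.14 on smoke 1 to 5. Smoke arrays stood above room air 2 to 5 without overlap and below room air 1. The difference was 1.43 (SE 0.38), or 2.7-fold (adjusted p = 0.042), and 1.86 (SE 0.11), or 3.63-fold, without room air 1 (adjusted p = 2.05e-06), while without any 1 of the other 9 arrays the adjusted p was 0.0597 to 0.104. The dimmer probe had red signals of 66.6 on room air 1, 8.75 to 19 on room air 2 to 5 and 43.5 to 77.2 on smoke. It was well above background in red on 1 of 5 room air and 5 of 5 smoke arrays and in green on 0, so its log2 difference of 0.09 (adjusted p = 0.542) is no measure of size and the probes could not be compared.

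Il1b encodes interleukin-1 beta. It read 5.96 on room air 1, 2.55, 2.85, 2.41 and 2.80 on room air 2 to 5, and 3.57, 3.05, 3.58, 3.22 and 3.19 on smoke 1 to 5. Room air 1 exceeded every smoke array by more than 2 log2 units, while the smoke arrays lay just above the other room air arrays without overlap. Over all 10 arrays the difference was 0.01 (95% interval -1.24 to 1.27, adjusted p = 0.996). Without room air 1 it was 0.67 (SE 0.13), or 1.59-fold (adjusted p = 0.00727).

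Tnf encodes tumour necrosis factor, the other early cytokine of the set. It read 1.92 on room air 1, -0.80, -1.30, -0.87 and -0.96 on room air 2 to 5, and -0.40, -0.31, -0.32, -0.08 and 0.02 on smoke 1 to 5. The order was that of Il1b, with room air 1 at the top and the smoke arrays between it and the other room air arrays. With all arrays the difference was 0.19 (-0.92 to 1.29, adjusted p = 0.922), and without room air 1 it was 0.77 (SE 0.11), or 1.7-fold (adjusted p = 0.00155).

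Il6 and Csf3, the genes of interleukin-6 and of the neutrophil growth factor G-CSF, were at the limit of detection. Il6 read 0.76 on room air 1, -1.52, -1.76, -1.72 and -1.25 on room air 2 to 5, and -1.47, -1.18, -1.60, -1.72 and -1.13 on smoke 1 to 5, and its red signal was well above background on room air 1 and smoke 3 alone. Csf3 was well above background on room air 1 alone, where it read 0.88; the other 9 arrays read -0.08 to 0.13. For both genes room air 1 stood apart and the ratios of the rest could not be ordered. Il6 differed by -0.32 (-1.23 to 0.58, adjusted p = 0.806) and, without room air 1, by 0.14 (-0.17 to 0.45, adjusted p = 0.714), but with 1 of 5 arrays well above background in each group, and 0 of 4 in room air without room air 1, these values are no measure of size. For Csf3 no smoke array was well above background, and in room air only room air 1 was. Mean normalized red signal in room air was 1.13-fold that in smoke. This value rests on room air 1 and is neither a bound nor a measure of size. The limma fit of the ratios gave an adjusted p of 0.741. Without room air 1 no array was well above background.

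With all arrays, 4 of the 10 genes passed the threshold, all higher in smoke (Saa3, Lcn2, Orm1 and Il1rn), against 1367 of 27669 genes over the array, or 4.94%. The median difference of all 10 genes was 0.60, and that of all genes 0.00. Without room air 1, 7 of the 10 passed, also higher in smoke, against 6.22% of all genes, and the median was 1.05. The genes added were Saa1, Il1b and Tnf. Room air 1 was the highest of the 10 arrays for 9 of these genes, so its removal lowers their room air means. For Saa3 the room air SD went from 2.84 to 0.25. Counts and p-values without room air 1 are therefore a description and no like comparison with all genes. With the slide as a block 5 passed, against 7.48%. Within slides, the smoke array was the higher one for Saa3, Saa1, Orm1, Il1rn, Il1b and Tnf on slides 2 to 5 and the lower one on slide 1. For Saa3 these differences were -1.09 on slide 1 and 5.53, 5.73, 5.05 and 5.92 on slides 2 to 5; for Il1b they were -2.39 and 0.50, 0.74, 0.81 and 0.40; for Lcn2 they were 0.02 and 3.43, 3.28, 3.09 and 3.34.

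**Figure D2:**
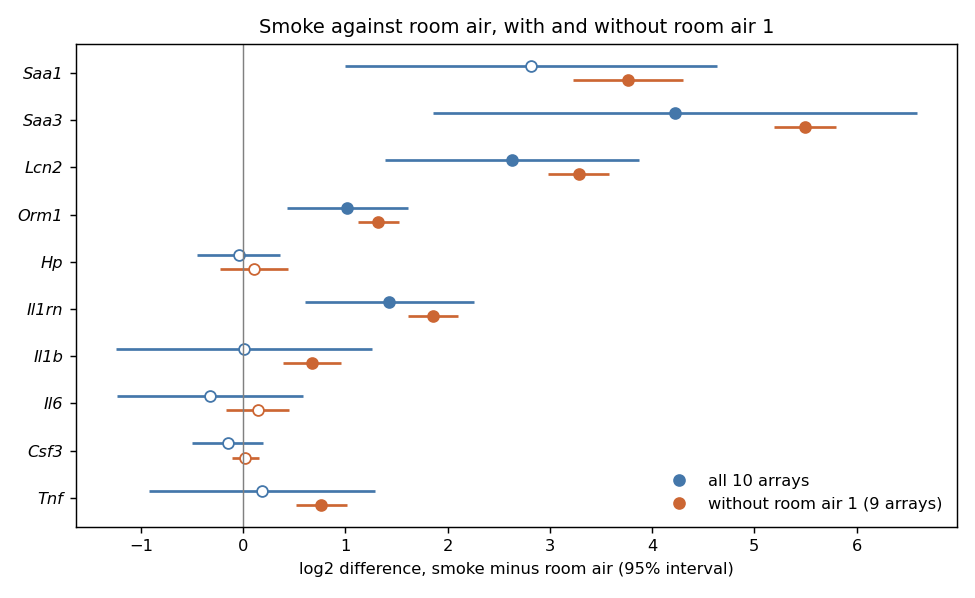
Log2 difference of smoke minus room air with its 95% interval for each of the 10 genes, over all 10 arrays and over the 9 arrays without room air 1. Filled points passed an adjusted p of 0.05; the intervals are narrower without room air 1, and Saa1, Il1b and Tnf pass there alone.

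Room air 1 was set beside the smoke arrays, each minus the mean of room air 2 to 5, so that the paired differences share their control arrays. Room air 1 was higher than that mean by 6.33 for Saa3, 4.73 for Saa1, 3.26 for Lcn2, 2.14 for Il1rn, 1.52 for Orm1 and 0.73 for Hp, where smoke was higher by 5.50, 3.76, 3.28, 1.86, 1.32 and 0.10. It was higher by 3.31 for Il1b and 2.90 for Tnf, where smoke was higher by 0.67 and 0.77. Room air 1 thus exceeded the smoke mean by 2.63 for Il1b and 2.14 for Tnf, and by 0.97 for Saa1, 0.84 for Saa3, 0.62 for Hp, 0.28 for Il1rn and 0.19 for Orm1, and for Lcn2 it differed by -0.02. Of the 24 other acute-phase genes listed, room air 1 was the highest of the 10 arrays for 11. Il6 and Csf3 were not well above background on room air 2 to 5, so no size is set beside these. Their red signals were 1050 and 234 on room air 1, 7 to 13.7 and 6.18 to 18.9 on room air 2 to 5, and 19.3 to 33.5 and 6.54 to 23.9 on smoke. Over all genes, room air 1 was the highest of the 10 arrays for 15.1%, the largest share of any array, against 6.75% to 12.9% for the other 9 arrays; among the 10 genes here it was the highest for 9.

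**Figure D3:**
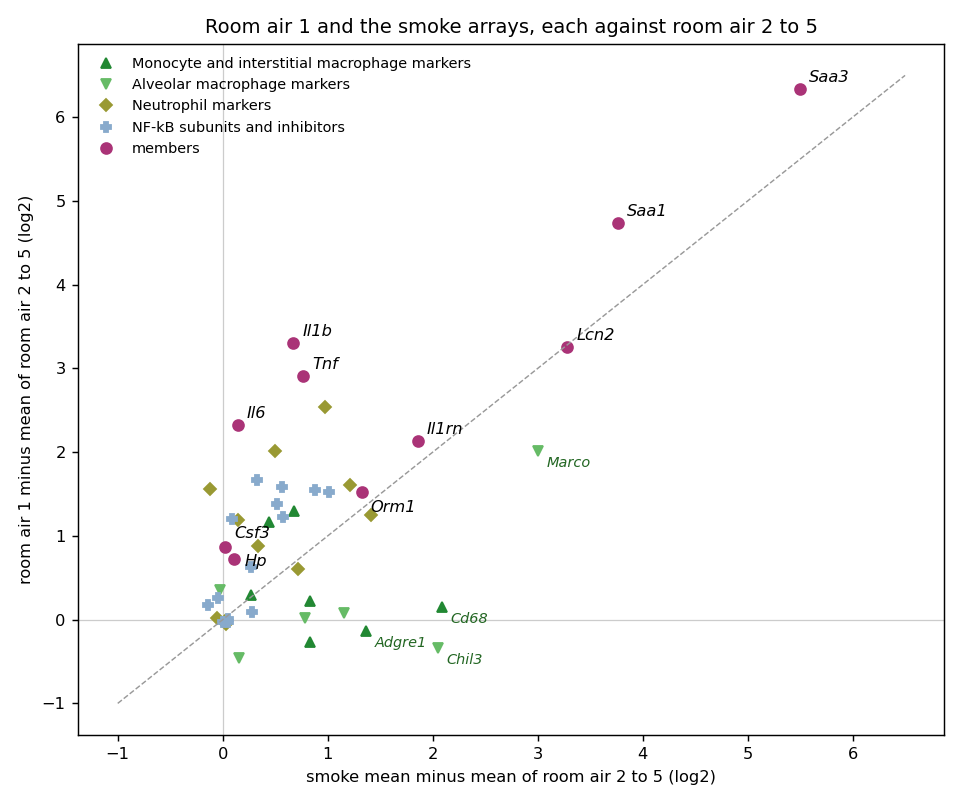
Each point is a gene; the horizontal axis is the smoke mean and the vertical axis room air 1, both in log2 minus the mean of room air 2 to 5, which the axes share. The dashed line marks equal values: Lcn2 lies on it, and Il1b and Tnf lie far above it. Of the macrophage and monocyte markers Cd68, Adgre1 and Chil3 lie far below it and Ccr2, F13a1 and Car4 above it. Room air 1 exceeded the smoke mean for 1 of 6 alveolar macrophage and 3 of 7 monocyte and interstitial macrophage markers. Il6 and Csf3 were not well above background on room air 2 to 5.

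Of the relatives of these genes on the array, Saa2 and Orm2 showed the arrangement of Saa1 and Orm1, and Orm3 did not. Saa2, a close relative of Saa1, read 3.19 on room air 1, -0.06 to 0.20 on room air 2 to 5 and 1.78 to 2.48 on smoke, a difference of 1.44 (adjusted p = 0.172) and 2.07 without room air 1 (adjusted p = 2.16e-06). Orm2 read 2.65, 0.01 to 0.29 and 1.54 to 2.45, a difference of 1.52 (adjusted p = 0.0718, with the slide as a block 0.0192) and 2.03 without room air 1 (adjusted p = 1.34e-05). These sizes are limited at the low end, since red signals were near or below the offset of 50 on room air 2, 3 and 5 for Saa2 (50.4, 46.2 and 48.7) and on room air 5 for Orm2 (49). The green signal of Saa2 also moved, from 49.2 to 133 on room air 2 to 5 to 122 to 235 on smoke and 419 on room air 1. Orm3, well above background on all arrays, read 1.00, 0.21 to 0.65 and 0.44 to 0.68, with overlap, and differed by 0.04 (-0.24 to 0.33, adjusted p = 0.936). Saa4, a form expressed without inflammation, had red signals of 43.1 on room air 1, 5.88 to 53.9 on room air 2 to 5 and 67.3 to 114 on smoke with its brighter probe. This probe was well above background in red on 2 of 5 room air and 5 of 5 smoke arrays and in green on 0, so its log2 difference of 0.41 (adjusted p = 0.00832) is no measure of size. Probes of such similar genes may bind each other's RNA, which was not tested.

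Likeness between the genes over the 10 arrays is given as a description. It was high for some pairs and low for others, from 0.992 for Lcn2 with Il1rn to 0.307 for Lcn2 with Csf3, and Saa3 with Hp had 0.357. Saa3 and Lcn2 had a Pearson r of 0.987, Lcn2 and Il1rn 0.992, and Il1b and Tnf 0.931. After each group's mean was removed the r were 0.975, 0.99 and 0.937, and without room air 1 as well they were 0.183, 0.837 and -0.621. The within-group likeness of Saa3 with Lcn2 and of Il1b with Tnf thus rested on 1 array. Among 14329 genes well above background on all arrays, those closest to Saa3 over the 10 arrays were Cyp7b1 (r = 0.993), Noxo1 (0.993) and Tpd52 (0.991), and to Saa1 Cyp7b1 (0.99), Il34 (0.986) and Tpd52 (0.982). Closest to Lcn2 were Ch25h (0.997), Noxo1 (0.997) and Ccl9 (0.992), and to Il1rn Slc26a4 (0.994), Snx20 (0.992) and Clec4d (0.991). These follow both the smoke arrays and room air 1. Closest to Il1b were Mefv (0.992), Trem3 (0.986) and Cep290 (0.984), to Tnf Acod1 (0.993), Clec4e (0.98) and Selp (0.973), and to Hp Nfe2 (0.961), Zfp143 (0.955) and Arcn1 (0.949). Mefv, for example, was 2.83 above the other room air arrays on room air 1 and differed by 0.00 between the groups, and by 0.57 without room air 1 (adjusted p = 0.0162).

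Because Saa3, Saa1, Lcn2 and Il1rn had correlations of 0.966 to 0.992 with each other over the 10 arrays, the 250 bases before their starts are shown, with those of Il6, a cytokine gene for which no difference could be measured. Promoters of 7 of the 10 genes were matched in RefSeq (GRCm38.p6). Capitals mark matches, on either strand, to the C/EBP motif TTGCNNAA, the AP-1 motif TGANTCA, the STAT motif TTCNNNGAA or the NF-kB consensus; no matches overlap.
Saa3, chr7:46715677-46715926, minus strand: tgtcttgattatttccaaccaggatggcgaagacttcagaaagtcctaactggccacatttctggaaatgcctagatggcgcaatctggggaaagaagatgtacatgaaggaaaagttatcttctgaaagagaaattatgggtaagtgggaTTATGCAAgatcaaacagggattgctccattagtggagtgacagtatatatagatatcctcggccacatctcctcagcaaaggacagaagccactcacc
Saa1, chr7:46742981-46743230, minus strand: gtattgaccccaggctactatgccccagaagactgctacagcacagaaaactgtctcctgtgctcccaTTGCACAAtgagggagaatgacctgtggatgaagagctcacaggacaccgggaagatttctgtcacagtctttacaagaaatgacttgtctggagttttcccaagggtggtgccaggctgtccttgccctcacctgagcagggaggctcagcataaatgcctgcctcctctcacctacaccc
Lcn2, chr2:32387740-32387989, minus strand: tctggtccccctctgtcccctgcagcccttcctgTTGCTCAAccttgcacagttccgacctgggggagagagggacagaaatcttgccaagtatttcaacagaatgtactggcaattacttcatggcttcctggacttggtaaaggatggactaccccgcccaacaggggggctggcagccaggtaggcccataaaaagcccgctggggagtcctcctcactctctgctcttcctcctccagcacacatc
Il1rn, chr2:24336610-24336859, plus strand: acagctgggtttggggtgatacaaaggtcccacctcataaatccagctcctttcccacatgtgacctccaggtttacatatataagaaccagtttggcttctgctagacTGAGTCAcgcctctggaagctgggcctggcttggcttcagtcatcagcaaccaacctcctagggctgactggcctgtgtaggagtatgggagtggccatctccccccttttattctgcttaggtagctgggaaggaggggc
Il6, chr5:30012864-30013113, plus strand: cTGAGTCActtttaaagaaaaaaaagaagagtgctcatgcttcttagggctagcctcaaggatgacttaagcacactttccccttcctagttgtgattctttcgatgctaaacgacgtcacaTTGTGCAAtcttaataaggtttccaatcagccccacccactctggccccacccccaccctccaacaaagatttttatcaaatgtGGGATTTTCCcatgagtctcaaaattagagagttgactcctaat
A C/EBP match stood in Saa3, Saa1, Lcn2 and Il6, or 4 of the 7 genes, against 9.56% of 32851 promoters of this length. The AP-1 match of Il1rn and that of Il6 compare with 6.75%, the NF-kB match of Il6 with 3.9%, and the STAT motif, found in none of the 7, with 7.02%. Il1b and Tnf held no match in this window. A match is a run of letters and not a measured binding site.

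Other acute-phase genes were read next, and the counts in this and the following lists stand beside those of all genes. Over 27669 genes 4.94% were higher in smoke and 905 genes lower with all arrays, 7.48% and 1742 with the slide as a block, and 6.22% and 1139 without room air 1. Of 24 on the list, 3 passed with all arrays, all higher in smoke, 9 higher and 1 lower with the slide as a block, and 12 without room air 1. C3, the central complement protein and the brightest of the list, read 2.94 on room air 1, 1.23 to 1.87 on room air 2 to 5 and 3.00 to 3.36 on smoke, or 2.6-fold higher (adjusted p = 0.00739). Cp, which encodes the copper carrier ceruloplasmin, was 2.23-fold higher (adjusted p = 0.0341). Without room air 1 the folds were 3.14 and 2.77 (adjusted p = 8.25e-06 and 3.64e-05).

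Receptors and signalling genes follow. In the interleukin-1 list 2 of 22 measured genes were higher and 1 lower, 2 and 3 with the slide as a block, and 4 and 0 without room air 1, against 4.94%, 7.48% and 6.22% of all genes higher. Those lower with the block were Il18r1, Il1r1 and Traf6, named after their values were seen. The number of calls was 1 without room air 2, room air 3 or smoke 1, where 3 passed with all arrays. Il1r2, the decoy receptor that binds interleukin-1 without signalling, was 2.91-fold higher (adjusted p = 0.0197), with room air 1 at 2.48 among smoke values of 2.29 to 2.69 and the other room air arrays at 0.35 to 0.61. Il18, a cytokine of the same family, was 1.77-fold higher (adjusted p = 6.96e-05), and here room air 1, at 1.70, lay with the other room air arrays (1.64 to 1.82) and below all smoke arrays (2.40 to 2.79). Irak1, the brightest of that list, differed by -0.08 (adjusted p = 0.651). Of 8 measured inflammasome genes 2 were higher, among them Pycard, the adaptor of the complex, at 1.7-fold (adjusted p = 7.49e-04); Gsdmd was the brightest and differed by -0.04 (adjusted p = 0.924).

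In the interleukin-6 and STAT3 list 0 of 21 measured genes passed the limma fit with all arrays, 1 (lower) with the slide as a block, and 8 without room air 1, all higher in smoke; on 15 of the 21 room air 1 was the highest array. The brightest, Il11ra1, differed by 0.03 (adjusted p = 0.935). For NF-kB subunits and inhibitors the counts were 0 of 14 and, without room air 1, 6 higher, with room air 1 highest for 9. Nfkbia, an inhibitor that NF-kB itself induces and the brightest of the list, read 2.29 on room air 1, 0.44 to 0.82 on room air 2 to 5 and 0.71 to 1.23 on smoke. Among 14 TNF superfamily receptor and signalling genes 2 were higher and 1 lower, 3 and 1 with the slide as a block, and 6 and 1 without room air 1. Leaving out any other single array gave 0 to 2 calls in limma, with 0 without smoke 1, in fits with fewer samples. The cause of the lost calls was not tested. Tnfrsf1b, a TNF receptor, was 1.61-fold higher (adjusted p = 0.0385) and Cflar, the brightest, fell by 0.26 on the log2 scale (adjusted p = 0.0237).

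Of 7 colony-stimulating factors and receptors 3 were higher, and 6 without room air 1. Csf2rb and Csf2rb2, subunits of the receptors for GM-CSF and related cytokines, were 2.69-fold and 2.58-fold higher (adjusted p = 6.99e-04 and 7.3e-05), and the brightest, Csf2ra, 1.18-fold (adjusted p = 0.152, without room air 1 0.0209). In the interleukin-17 and interleukin-22 list 1 of 11 genes passed (higher), 4 were well above background on all arrays, and Il17c and Il22 on none; its brightest, Il17rc, differed by 0.02 (adjusted p = 0.941). Of 10 receptors and partners of acute-phase proteins 2 were higher and 1 lower: Tlr2, which recognises bacterial lipoproteins and serum amyloid A, was 2.18-fold higher (adjusted p = 0.0221), and the brightest, Cd36, fell by 0.51 on the log2 scale (adjusted p = 0.00168). Over all these lists together, 15 of 131 genes were higher and 3 lower with all arrays (median difference 0.11), 23 and 7 with the slide as a block, and 49 and 2 without room air 1 (median 0.20). Over all 27669 genes 4.94% were higher and 905 lower with all arrays, 7.48% and 1742 with the block, and 6.22% and 1139 without room air 1. The genes that complete these counts were named after their values were seen: Il18r1, Casp1, Ripk1, Csf1r, Il17rb and Tlr4, with differences of -0.57, 0.57, 0.20, 0.58, 0.24 and 0.40.

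**Figure D4:**
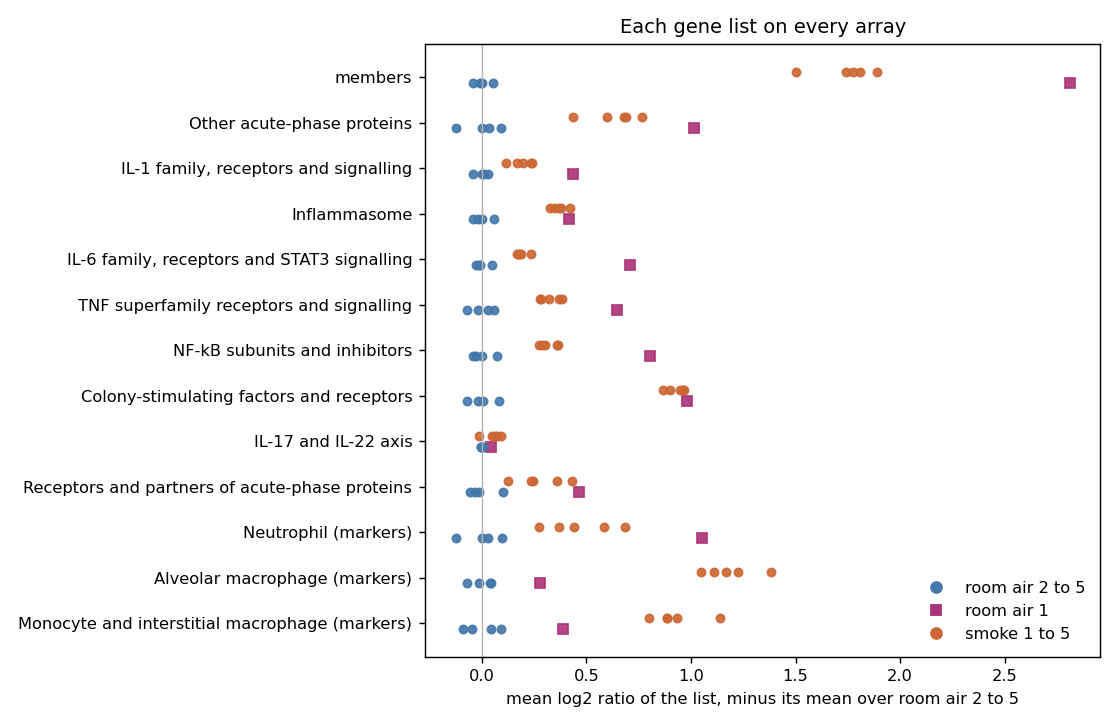
Mean log2 ratio of each gene list on every array, minus its mean over room air 2 to 5. Room air 1 (squares) lies at or beyond the smoke arrays for the pathway lists other than interleukin-17 and interleukin-22 and for neutrophil markers, and between the groups for both macrophage lists, where for alveolar macrophages Marco alone was far above the other room air arrays.

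Markers of cells that make these transcripts were read beside them, and their part in the results was not tested. Of 11 neutrophil markers measured 2 were higher with smoke (Mmp8 2.24-fold, adjusted p = 0.021, and Camp 1.51-fold, adjusted p = 0.0088), 3 with the slide as a block and 4 without room air 1, against 4.94%, 7.48% and 6.22% of all genes, which hold for the marker counts below as well. Their mean log2 ratio was 2.47 on room air 1, 1.29 to 1.51 on room air 2 to 5 and 1.69 to 2.11 on smoke, and room air 1 was the highest array for 6. S100a9 was the brightest (difference 0.16, adjusted p = 0.852), 7 were well above background on all arrays, and Elane on none. Of the alveolar macrophage markers, 4 of 6 were higher with smoke (Marco 6.05-fold, Chil3 4.33-fold, Mrc1 2.2-fold and Pparg 1.72-fold), and their mean was 3.01 on room air 1, 2.66 to 2.77 on room air 2 to 5 and 3.78 to 4.11 on smoke. Chil3 was the brightest. Room air 1 differed from the mean of the other room air arrays by 2.02 for Marco, 0.35 for Car4, 0.07 for Mrc1, 0.02 for Pparg, -0.34 for Chil3 and -0.45 for Siglecf, of which Car4 and Siglecf were named after their values were seen.

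Monocyte and interstitial macrophage markers, 4 of 7 higher, averaged 1.10 on room air 1, 0.62 to 0.80 on the other room air arrays and 1.51 to 1.85 on smoke. Cd68 (4.16-fold higher with smoke, adjusted p = 6.93e-09) read -1.16 on room air 1, -1.41 to -1.18 on room air 2 to 5 and 0.69 to 0.90 on smoke; Adgre1 was 2.62-fold higher, Cx3cr1 1.85-fold and C1qa, the brightest, 1.72-fold. Room air 1 differed from the mean of the other room air arrays by 0.15 for Cd68, -0.14 for Adgre1, -0.26 for Cx3cr1, 0.22 for C1qa and 0.29 for Vcan. For Ccr2 and F13a1 it was higher by 1.29 and 1.17 and the highest of the 10 arrays; Ccr2, F13a1 and Vcan were named after their values were seen. No gene of the 7 hepatocyte markers measured passed with all arrays, while Fabp1 was lower with the slide as a block (-0.66, adjusted p = 0.011) and without room air 1 (-0.73, adjusted p = 0.0446). Their mean was 1.01 on room air 1, 0.96 to 1.92 on room air 2 to 5 and 0.88 to 1.23 on smoke, Fabp1 was the brightest and Ttr was well above background on no array. The adipocyte list (mean 3.18, 2.19 to 3.06 and 1.80 to 2.40) had 1 of 6 genes lower, Cidec, which fell by 1.02 on the log2 scale (adjusted p = 0.0105), and Cfd as the brightest. With all arrays no gene passed in the alveolar type 1 and type 2, club, ciliated, T cell or B cell lists. With the slide as a block Aqp5, an alveolar type 1 marker, was lower (-0.23, adjusted p = 0.0266), Cd3d, a T cell marker, was higher (0.35, adjusted p = 0.0327), and Actc1 of cardiac muscle was lower (-0.46, adjusted p = 0.00329). Aqp5 and Actc1 were named after their values were seen. With all arrays 1 was lower in each of the endothelial and cardiac muscle lists; these were Pecam1, named after its values were seen, which fell by 0.41 (adjusted p = 0.0488), and Tnnt2, which fell by 0.41 (adjusted p = 0.0493, without room air 1 0.0783). Sftpc, Hopx, Scgb1a1, Tekt1, Cldn5, Cd3d, Cd79b and Tnnt2 were the brightest of these 8 lists.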

How the data were processed

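Lung RNA of 10 mice was measured on 10 Agilent two-channel arrays, 1 per mouse, in 2 groups of 5. Per the file headers, the scanner files hold intensity of 43379 spots that are not controls, with log10 ratios of the channels, made with Feature Extraction 9.5.3.1, whereas the submitters' processing notes give 9.1. The deposited table holds values on a log2 scale. In the files 41174 probes were found; 22951 were named by accession, 6659 by current symbol, 3109 by synonym and 8455 by the file's own name, giving 27670 gene names.

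Mean signals were background-corrected by normexp (offset 50) and normalized by loess within arrays, with outlier spots left out and the spots of a probe averaged, and log2 ratios of red over green were fitted with limma 3.58.1 in R 4.3.3. P-values were adjusted by the Benjamini-Hochberg method over all probes, with a threshold of 0.05; the brightest probe in red represented a gene. The study's methods name limma for normalization and Wilcoxon tests between the groups. With 5 against 5 the smallest Wilcoxon p is 0.00794, so limma was the main test. Well above background is the scanner software's own call; 26370 to 31665 probes per array met it in red and 25222 to 30685 in green. Arrays of equal number shared a slide, and their correlation after group means were removed was 0.157, 0.46, 0.461, 0.55 and 0.415 over 41133 probes, so the slide served as a block in an alternative. The block cannot remove an effect of the place on the slide, which differed between the groups on every slide.

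Other alternatives were the Wilcoxon test, background correction, offset, the red channel alone, scaling between arrays, filters on dim probes, the mean of a gene's probes, stricter thresholds, the deposited table and each array left out. The genes and lists were chosen with earlier results of these data known. The fit without room air 1 was part of the rule that defined the 10 genes. Genes named are the 10, the relatives Saa2, Saa4, Orm2 and Orm3, from each list those past the threshold with a fold over 1.5 (at most 6) and the brightest, and the 3 closest by correlation to each of the 10 that was well above background on every array. Control spots were left out, and no set test was made. Listed genes absent from the array were Il36rn, Nlrp1b, Lif, Ly6g, Serpina1c, Ear2, Siglec5 and Ly6c2. Promoters of Orm1, Hp and Csf3 were missing from the promoter table. Figures were drawn with Python 3.11.15 and matplotlib 3.10.9.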

Additional observations from a re-analysis of the deposited data

Results flagged for a closer look

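Room air 1 stood far above the other room air arrays for 9 of the 10 genes and for 2 relatives. The gap to the nearest room air array, as a share of the group's range, was 0.77 for the brighter and 0.957 for the dimmer probe of Saa1, 0.916 for Saa3, 0.884 for Lcn2, 0.78 for Orm1, 0.869 for the brighter probe of Il1rn, 0.878 for Il1b, 0.797 for Il6, 0.792 for Csf3, 0.845 for Tnf, 0.922 for Saa2 and 0.892 for Orm2, against a limit of 0.71 for 5 samples. In smoke, Orm2 was set apart on smoke 4, which was low (1.54; gap 0.739). Chance passes this limit in about 1 in 20 groups, and these genes vary together, so the gaps are not separate observations. Over all genes room air 1 was set apart for 909 of 27655 (3.29%), 646 of them high, against 169 to 515 for the other room air arrays and 156 to 557 for the smoke arrays. The cause was not tested.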

How the results depend on the processing

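Lcn2 kept its direction and its side of the threshold of 0.05 under the limma alternatives computed from the scanner files, with differences of 2.40 to 3.81 and adjusted p of 1.58e-07 to 0.0441. The Wilcoxon test gave it an adjusted p of 0.165. Saa3, Orm1 and Il1rn kept their direction there, and their calls were lost with the scanner's processed signals, without background subtraction, with the red channel alone under both scalings for Saa3 and Il1rn, and for Orm1 with red scaled to the 75th percentile. Their differences did not shrink there: with the scanner's processed signals, without background subtraction and with red alone scaled to the 75th percentile they were 4.51, 4.24 and 4.66 for Saa3, 1.84, 1.46 and 2.13 for Il1rn, and 2.69, 1.11 and 2.64 for Orm1. Orm1 was 1.51 with an offset of 16, and Il1rn 0.76 with the mean of its probes. The cause was not tested.

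Of the 10 genes, 4 passed. The count was 1 with the scanner's processed signals, 1 without background subtraction, 1 with red alone scaled to the 75th percentile, 2 with red alone after quantile normalization, and 0 at an adjusted p of 0.01. With the slide as a block it was 5: Saa1 was added (adjusted p = 0.0431) and the block changed no other call of the 10. Saa1 also passed with an offset of 16 (adjusted p = 0.0449) and with the filters in red (0.0478) and in green (0.0468), over its alternatives from the scanner files 3.5e-06 to 0.51. The Wilcoxon test passed 0 of the 10, 0 probes and 0 listed genes, its smallest adjusted p being 0.115; at an unadjusted p under 0.05 it passed 5450 probes and 1 of the 10 genes (Lcn2), and limma 7477 probes.

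Over the array, limma passed 2908 probes, with the slide as a block 5025, with the scanner's processed signals 1892, with red alone scaled to the 75th percentile 1759, at an adjusted p of 0.01 1430, and with a fold over 2 as well 215. Of listed pathway genes 18 passed, and 30 with the block, 10 at an adjusted p of 0.01 and 6 with a fold over 2.

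Small differences changed sign. Hp was 0.0229 with red alone scaled to the 75th percentile and 0.20 with ratios scaled between arrays, Il1b -0.0148 with red alone scaled to the 75th percentile and -0.0316 after quantile normalization, and Il6 0.0674 with the scanner's processed signals and 0.14 with red alone scaled to the 75th percentile; none of these passed, and the cause was not tested.

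The deposited table, with its columns as labelled, reversed most genes: Saa3 -2.32, Lcn2 -2.42, Saa1 -1.65, Il1rn -1.08, Tnf -0.23, Hp 0.0185, and the median of the genes -0.65 in place of 0.60. Il1b (0.17) and Il6 (-0.02) kept their sign. It passed 16 probes, 0 of the 10 genes and 0 listed genes in limma; Orm1 and Csf3 were absent. Each column matched the array of the other group best, and the cause of the exchange was not tested. For Lcn2 the paper reports a rise with smoke in mice, which is the direction under the labels of the scanner files.

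Leaving out each array in turn gave 2097 to 3665 probes, 12 to 51 listed genes, 1 to 7 of the 10 genes and medians of 0.49 to 1.05. The differences were 3.84 to 5.50 for Saa3, 2.49 to 3.76 for Saa1, 2.40 to 3.28 for Lcn2, 0.90 to 1.32 for Orm1, 1.30 to 1.86 for Il1rn, -0.15 to 0.10 for Hp, -0.21 to 0.67 for Il1b, -0.0392 to 0.77 for Tnf, -0.49 to 0.14 for Il6 and -0.22 to 0.0237 for Csf3. Without room air 1, 7 of the 10 passed; Saa3, Orm1 and Il1rn did not pass without any 1 of the other 9 arrays, a fit with fewer samples. Filters on dim probes left 8 of the 10 genes measured. Signal over background limits Il6 and Csf3, which were well above it on 2 and 1 of 10 arrays.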
